A study of Mus musculus with 5 samples.

Results

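This account follows the splicing factors and RNA helicases of mouse peritoneal macrophages after poly IC, with and without ethanol. The genes were chosen by symbol alone: every gene with a probe set of 1 gene symbol that begins with Hnrn, Srsf, Sfrs, Sf3, Snrp, Prpf, U2af, Ddx or Dhx. The rule found 82 genes on 116 probe sets, of 12488 probe sets on the array, and 78 of them were bright enough to be tested among 5581 genes. Each gene was read from its probe set with the highest mean signal over the 5 arrays. Another 7 probe sets named a gene with such a prefix together with other genes, and were not used.

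Poly IC (polyinosinic polycytidylic acid) is a man-made double-stranded RNA used to mimic a virus, and the study addresses the effect of ethanol, given acutely by mouth, on gene induction by it. RNA was hybridised to Affymetrix MG-U74Av2 arrays, 1 array for each sample: 1 naive (untreated) sample, 2 poly IC samples and 2 samples with poly IC plus ethanol. Each treated sample was a pool from female C57Bl/6 x C3H F1 mice of 12 weeks. The labels give 0.1 mg poly IC per mouse for all treated pools but the first poly IC pool, whose dose they do not state, and 6 g ethanol per kg. Strain, age and sex of the naive mice are not stated in them. With no array of ethanol alone, what ethanol does on its own cannot be told apart from what it does to the poly IC response. P-values rested on the spread between the pools of a treatment and, in larger part, on spread borrowed from other genes of like signal. The single naive array was assumed to vary like the treated ones.

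Splicing removes introns from pre-mRNA in the spliceosome, a machine built from small nuclear ribonucleoproteins (snRNPs) and many loosely bound proteins. SR proteins and heterogeneous nuclear ribonucleoproteins (hnRNPs) bind exons and introns and steer the choice of splice sites, often in opposite directions. DDX and DHX helicases use ATP to remodel RNA in splicing, ribosome assembly, export and translation, and some of them take part in sensing foreign RNA.

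Markers of cell types were read first, which does not show that the RNA came from macrophages alone. All 10 macrophage markers were brighter on every array than all 19 unspiked controls, and Adgre1, which encodes a surface antigen typical of mouse macrophages, had signals of 24872 on the naive array, 30801 and 28945 after poly IC, and 28109 and 19411 with ethanol. Of 9 tested macrophage markers, 2 rose and 2 fell with poly IC against naive, and none was called with ethanol against poly IC. Gata6 went from 7218 on the naive array to 1169 and 1531 after poly IC, and Cd14 from 47180 to 126412 and 147435. Markers of other cell types differed between arrays, in part between pools of a group. Sums of 4 erythroid markers were 1855 on the naive array, 18606 and 34217 after poly IC, and 20040 and 11279 with ethanol. For 9 T cell markers they were 27903, then 15509 and 10774, then 21612 and 23074. For 5 mast cell markers they were 19798, then 32970 and 10075, then 19253 and 17329. The summed signal of 14 neutrophil markers was 23902 on the naive array (8 of 14 below the brightest control), 138253 and 101108 after poly IC, and 46346 and 39070 with ethanol. That of 12 B cell markers was 281655, then 109810 and 98609, then 160589 and 158136. On the naive array 0 of these 12 were below the brightest control, and their sum was above the 268051 of the 10 macrophage markers. No marker read 0: the lowest signals were 341.1 for macrophage, 57.9 for neutrophil and 10.1 for B cell markers. Of 12 tested neutrophil markers, 8 rose and 1 fell with poly IC against naive and 6 fell with ethanol against poly IC; of 11 B cell markers, 11 fell and 5 rose. Xist, which is transcribed in female cells, read 7699 on the naive array and 3907 to 8236 on the others, and 3 Y-linked genes stayed between 14.7 and 212.4, below the brightest control of every array. Signal of 18S ribosomal RNA was 66548 in poly IC replicate 2 and 5113 to 19415 on the other arrays.

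Differences are given in log2(signal + 250), where adding 250 shrinks the changes of dim genes, and a gene was called at an adjusted p under 0.05 (limma, Benjamini-Hochberg over all 5581 genes). Of the 78 tested genes, 25 were called in at least 1 of the 3 comparisons (32.1%, beside 35.0% of all tested genes) and 53 in none. With poly IC against naive, 7 rose and 8 fell, beside 11.7% higher and 20.1% lower among all tested genes; the called share was 19.2%, against 31.8% of all genes. With ethanol added to poly IC, 1 rose and 8 fell, beside 5.77% and 4.8% of all genes, so that 11.5% were called against 10.6%. With poly IC plus ethanol against naive, 3 rose and 6 fell, beside 8.39% and 8.26%, a called share of 11.5% against 16.6%.

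The median difference of the 78 genes was -0.01 for poly IC against naive, where the median of all tested genes was -0.16, and -0.13 for ethanol against poly IC, where that of all genes was 0.07. For poly IC against naive, the members' median was 0.19 with median-centred arrays and 0.09 with quantile normalization. Signals of both ethanol arrays lay below both poly IC arrays in 34 of the 78 genes, beside 21.7% of all genes, and above both in 12, beside 33.1%. Against the naive array, both poly IC arrays were higher in 32 genes (35% of all genes) and lower in 30 (52.1%). Of poly IC plus ethanol, both arrays were above the naive array in 25 genes (32.7% of all genes) and below it in 49 (48.1%). The comparisons share arrays, so their values stand side by side and are not independent. Centring each array on its median moved the median of all genes for poly IC against naive from -0.16 to 0.04, and for poly IC plus ethanol against naive from -0.11 to 0.00. The split of called members then went from 7 higher and 8 lower to 13 higher and 3 lower, and that for ethanol with poly IC against naive from 3 and 6 to 3 and 1. Among all tested genes it went from 654 and 1121 to 843 and 721, and from 468 and 461 to 497 and 270. With quantile normalization the members' splits were 7 and 5, and 3 and 4, beside 715 and 951, and 482 and 426, of all genes. The 1 rise and 8 falls of members with ethanol against poly IC became 1 and 9 with either scaling. Those of all genes went from 322 and 268 to 194 and 286 with centring and 264 and 263 with quantile normalization.

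Some calls also rested on how limma set the variance and on the filter. With eBayes without the intensity trend, Ddx19b alone was still called with ethanol against poly IC. For poly IC against naive, Ddx21, Ddx3x, Hnrnpab, Prpf8, Snrpb and Srsf9 were then not called, and for poly IC plus ethanol against naive only Ddx24 and Sf3a1 kept their calls. Without the filter on low signals, Ddx46, Sf3a1 and Snrp1c-ps2 (poly IC against naive), Ddx18, Prpf38a, Srsf1 and Srsf11 (ethanol against poly IC) and Ddx50, Hnrnpr, Sf3a1, Snrpb and Srsf11 (both agents against naive) were not called.

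**Figure D1:**
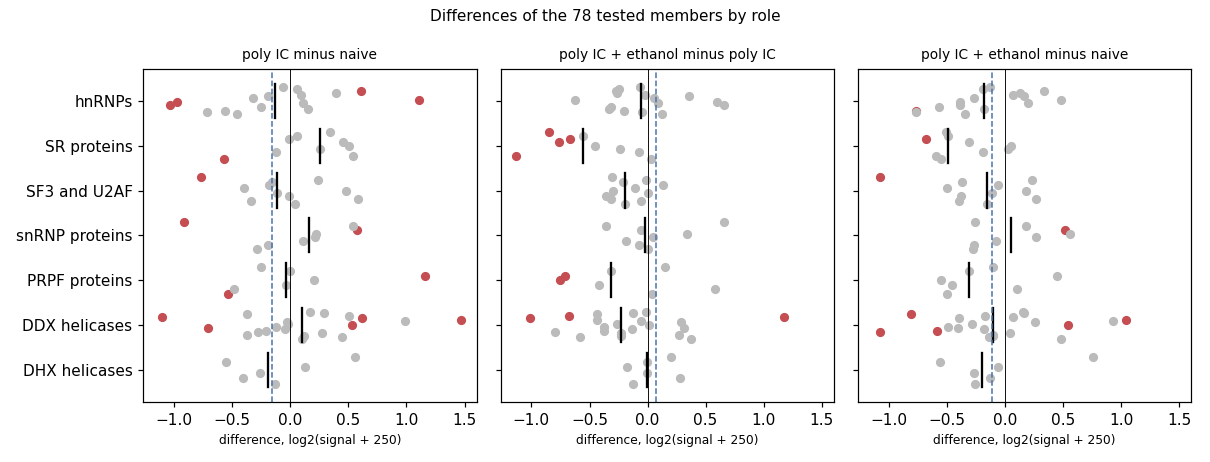
Differences in log2(signal + 250) of the 78 tested genes by role, for poly IC minus naive, poly IC plus ethanol minus poly IC, and poly IC plus ethanol minus naive. Each point is 1 gene (red where called), black bars are medians of the role and the dashed blue line is the median of all tested genes; SR protein genes had a median of 0.26 in the left panel and -0.55 in the middle one.

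The upstream sequences of 4 genes that moved far, Srsf6, Srsf2, Ddx21 and Ddx24, are shown because the first 3 were all lower with ethanol and the last had the highest rise of the members with poly IC. They are the 250 bases before the RefSeq transcript start in GRCm38.p6, read 5′ to 3′ on the strand of the gene: Srsf6 at chr2:162931258-162931507 (plus strand), Srsf2 at chr11:116853095-116853344 (minus), Ddx21 at chr10:62602299-62602548 (minus) and Ddx24 at chr12:103425848-103426097 (minus). Capitals mark matches, on either strand, to the motifs searched.
Srsf6: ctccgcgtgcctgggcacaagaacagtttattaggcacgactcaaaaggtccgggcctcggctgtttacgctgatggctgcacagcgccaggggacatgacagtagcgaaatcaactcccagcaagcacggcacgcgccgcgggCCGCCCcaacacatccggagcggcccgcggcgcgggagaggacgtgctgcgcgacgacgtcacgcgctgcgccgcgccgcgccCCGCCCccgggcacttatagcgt
Srsf2: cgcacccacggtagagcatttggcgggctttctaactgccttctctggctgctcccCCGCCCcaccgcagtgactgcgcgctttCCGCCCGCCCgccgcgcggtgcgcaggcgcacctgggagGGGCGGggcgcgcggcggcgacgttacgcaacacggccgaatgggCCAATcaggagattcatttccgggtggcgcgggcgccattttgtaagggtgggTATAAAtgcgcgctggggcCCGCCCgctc
Ddx21: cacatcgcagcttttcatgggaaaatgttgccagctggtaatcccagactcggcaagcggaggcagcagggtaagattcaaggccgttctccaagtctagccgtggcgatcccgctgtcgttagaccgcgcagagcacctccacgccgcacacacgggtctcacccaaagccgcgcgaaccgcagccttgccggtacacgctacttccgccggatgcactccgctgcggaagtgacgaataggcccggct
Ddx24: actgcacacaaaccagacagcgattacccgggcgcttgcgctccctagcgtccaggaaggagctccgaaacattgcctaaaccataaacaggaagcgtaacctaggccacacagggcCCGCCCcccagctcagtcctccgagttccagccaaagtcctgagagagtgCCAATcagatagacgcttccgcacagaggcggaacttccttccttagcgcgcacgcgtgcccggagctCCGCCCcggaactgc
In these windows the capitals are GC boxes (GGGCGG) in Srsf6, Srsf2 and Ddx24, a CCAAT box in Srsf2 and Ddx24, and a TATA box in Srsf2; some GC boxes of Srsf2 overlap each other. Srsf2 had 5 GC boxes, with its TATA box at position -29, and the Ddx21 window held none of the letters searched.

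Promoter windows of 300 bases (250 before the start and 50 after it) were found for 75 of the 82 genes, 96 windows in all. Their median GC content was 60% and their median observed to expected CpG ratio 0.95, beside 56.3% and 0.57 over 21262 windows of protein-coding genes. The ETS motif CCGGAAG occurred in 36.5% of member windows, beside 11.6% of protein-coding windows and 8.86% of all 32851 windows. GGGCGG occurred in 64.6%, 46.2% and 35.7%, CCAAT in 47.9%, 38.2% and 37.4%, and the E-box CACGTG in 8.33%, 7.84% and 7.15% of the same sets. The interferon-stimulated response element core was in 2 member windows (2.08%, beside 3.44% of all), both of Ddx49, and the NF-kB motif was in none of them (0.411% of all). TATAAA was in 9.38% (13.6% of all). An 8th motif, a palindrome with CGCG at its centre, was in 1 member window, that of Srsf10. These matches describe letters in a window and were not tested.

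SR proteins bind exonic enhancers through RNA recognition domains and recruit the spliceosome through arginine-serine repeats. They held the most falls with ethanol of any role. Of 9 tested genes, 4 fell with ethanol against poly IC and none rose (44.4%, beside 10.6% of all genes called). Their median was -0.55 beside 0.07 for all genes. Both ethanol arrays were below both poly IC arrays in 7 of the 9 (77.8%, beside 21.7% of all genes). With poly IC against naive 1 fell and none rose (11.1%, beside 31.8% of all genes called), at a median of 0.26. That median was 0.06 with probe sets averaged (1 rise, 1 fall) and 0.45 with centred arrays (2 rises, 0 falls).

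Srsf6 (SRp55), which acts on alternative exons of many transcripts, read 10930 on the naive array, 16531 and 15426 after poly IC, and 8231 and 6184 with ethanol. The ethanol pools were lowest, the naive sample lay between, and the groups did not overlap. It fell with ethanol from 15979 ± 781 to 7208 ± 1447 (SD, n = 2 each; log2 difference -1.13, SE 0.16, limma adjusted p = 0.00352). Poly IC against naive differed by 0.54 (SE 0.20, adjusted p = 0.0631) and was not called.

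Srsf2 (SC35), a core SR protein of nuclear speckles, read 19972 on the naive array, 24270 and 30995 after poly IC, and 16294 and 15916 with ethanol. Again the ethanol pools were below the naive sample and the poly IC pools above it. The fall with ethanol was from 27633 ± 4755 to 16105 ± 267 (-0.76, SE 0.14, adjusted p = 0.00932, limma). Another probe set for Srsf2 read 7847 on the naive array, 14492 and 17406 after poly IC, and 8143 and 5285 with ethanol, a difference of -1.24.

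Srsf1 (SF2/ASF), the founding SR protein, read 2330 on the naive array, 3215 and 2837 after poly IC, and 1650 and 1490 with ethanol. It fell with ethanol by 0.85 on the log2 scale (SE 0.18, adjusted p = 0.0179, limma). Of its 3 other probe sets, all dimmer, the differences with ethanol were -0.44, -0.42 and -0.08. Srsf11, an SR-related protein, read 14712 on the naive array, 14792 and 14431 after poly IC, and 10687 and 7756 in the ethanol pools. Its fall against poly IC was -0.67 (SE 0.16, adjusted p = 0.0306, limma). The naive and poly IC signals of Srsf11 overlapped, and both ethanol pools lay below them; it also fell against naive (-0.68, SE 0.20, adjusted p = 0.0459).

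The other SR genes did not pass the test with ethanol. Srsf3 differed by -0.45 (SE 0.19) and Srsf10 by -0.55 (SE 0.21), both with the ethanol arrays below the poly IC arrays. Srsf5, which read 25843 on the naive array, 21821 and 25903 after poly IC, and 25199 and 20234 with ethanol, had overlapping groups (-0.07, SE 0.14). Srsf4 differed by -0.23 and Srsf9 by 0.03. Srsf9 was the SR gene that fell with poly IC, from 9882 to 6627 and 6490 (-0.57, SE 0.18, adjusted p = 0.032), and its ethanol signals of 6957 and 6410 overlapped those of poly IC alone.

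Several SR calls were lost in alternatives. Without poly IC replicate 1, Srsf1 and Srsf11 differed with ethanol by -0.76 and -0.65 and were not called. Without poly IC replicate 2, Srsf1, Srsf2 and Srsf11 differed by -0.93, -0.58 and -0.68, also not called. The call of Srsf11 against naive was lost without poly IC replicate 1 or 2, or ethanol replicate 2 (-0.68, -0.68 and -0.45), and that of Srsf9 without poly IC replicate 1 or 2 (-0.59 and -0.56). With centred arrays Srsf9 differed by -0.38 and Srsf11 against naive by -0.57, and with probe sets averaged Srsf1 differed with ethanol by -0.64, none of them called. Without the intensity trend the adjusted p of Srsf6 with ethanol was 0.0562. The neutrophil sums given above were lower with ethanol than with poly IC, as were Srsf6, Srsf2, Srsf1 and Srsf11. With ethanol the sums were above that of the single naive array, and the signals of these 4 genes were below it. B cell sums changed as well, as given above. The part of neutrophil RNA in the result was not tested, and fewer cells of a type and less RNA per cell cannot be told apart.

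**Figure D2:**
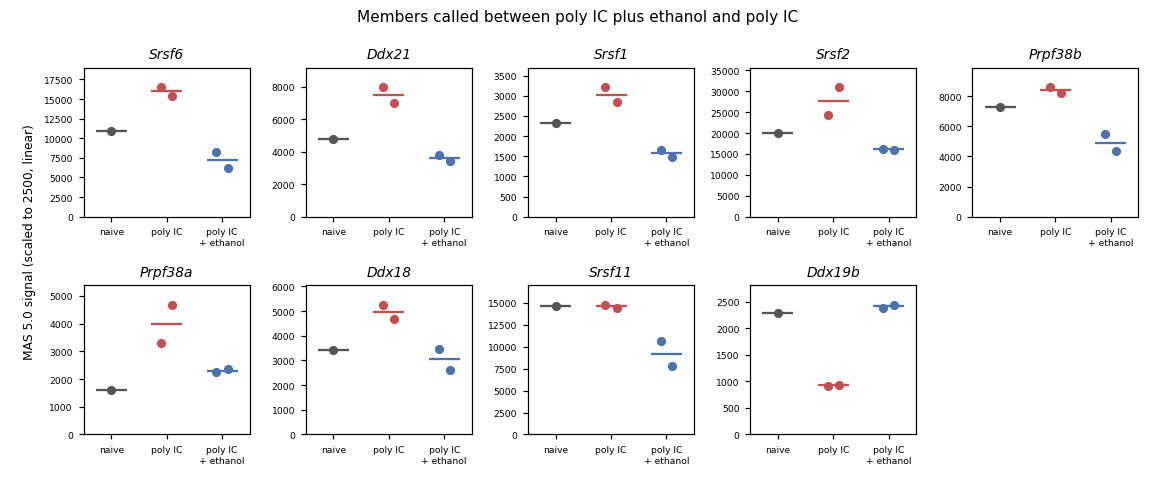
Signals (linear scale from 0, scaled by the submitters to 2500) of the 9 splicing factor and helicase genes called between poly IC plus ethanol and poly IC. Points are arrays and bars group means; in the 8 panels with a fall both ethanol arrays lie below both poly IC arrays, and in Ddx19b they lie near the naive array, at 2379 and 2441 against 919 and 940.

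The hnRNPs package nascent transcripts and often repress splice sites. Of 16 tested genes, 2 rose and 2 fell with poly IC (25%, beside 31.8% of all genes called), at a median of -0.13, or 0.07 with centred arrays. With ethanol against poly IC limma called none, beside 10.6% of all genes (5 had an unadjusted p under 0.05), at a median of -0.06. Hnrnph2, an X-linked relative of hnRNP H that binds G-rich elements, rose from 1741 on the naive array to 3936 and 4155 after poly IC (log2 difference 1.11, SE 0.25, adjusted p = 0.00832), and read 3107 and 2053 with ethanol. Both ethanol pools lay between the naive and the poly IC signals, and the difference from poly IC was -0.63 (adjusted p = 0.0887). Hnrnpab rose from 3709 to 5392 and 6252 (0.61, SE 0.19, adjusted p = 0.037); its other probe set, at 550 on the naive array, differed by -0.05.

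The 2 hnRNP genes that fell with poly IC were Hnrnpl and Hnrnph3. Hnrnpl, which binds CA repeats and controls alternative exons in lymphocytes, went from 3530 on the naive array to 1698 and 1489 (-1.04, SE 0.25, adjusted p = 0.0113), and read 3159 and 2213 with ethanol. Hnrnph3 went from 3557 to 1922 and 1470 (-0.98, SE 0.24, adjusted p = 0.0106) and read 2490 and 2855 with ethanol. For both, the ethanol pools stood between the poly IC pools and the naive sample, with differences from poly IC of 0.65 (adjusted p = 0.0756) and 0.59 (adjusted p = 0.0827) that limma did not call. B cell sums, given above, followed the same order of groups, and their part was not tested. Without poly IC replicate 2 the falls of Hnrnpl and Hnrnph3 were -0.96 and -0.81 and not called. Hnrnpab was 0.72 without poly IC replicate 1 and 0.51 without replicate 2, not called in either, and 0.28 with its probe sets averaged.

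Hnrnpa2b1, Hnrnpk, Hnrnpc, Hnrnpa1 and Hnrnpu did not pass the test in any comparison. Hnrnpa2b1 read 26229 on the naive array, 28941 and 25944 after poly IC, and 25563 and 20769 with ethanol, and differed by 0.06 (SE 0.16) with poly IC and -0.25 (SE 0.13) with ethanol. Hnrnpk, which binds C-rich RNA and DNA, differed by 0.11 (SE 0.17) and 0.09 (SE 0.14), Hnrnpc, which binds uridine tracts, by 0.39 (SE 0.24) and -0.26 (SE 0.20), and Hnrnpa1 by -0.06 (SE 0.30) and -0.07 (SE 0.24). Hnrnpu, a scaffold protein of the nucleus, read 1635 on the naive array and 825 to 939 on all 4 treated arrays (-0.72, SE 0.29, adjusted p = 0.0923 with poly IC). Its dimmer probe set read 540 on the naive array, 130 and 134 after poly IC, and 307 and 475 with ethanol. There the difference of ethanol from poly IC was 0.73, with both poly IC signals below the brightest control. Hnrnpr fell in poly IC plus ethanol against naive, from 5199 to 3433 and 2551 (-0.76, SE 0.22, adjusted p = 0.0452). The Hnrnpr call was lost without poly IC replicate 1 or 2 (-0.76 in both) and without ethanol replicate 2 (-0.57), with centred arrays (-0.65) and with quantile normalization (-0.69).

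SF3 and U2AF proteins mark the 3′ end of the intron: U2AF binds the polypyrimidine tract and the terminal AG, and SF3A and SF3B are parts of the U2 snRNP that hold the branch site. Of 11 tested genes, 1 fell with poly IC (9.09%, beside 31.8% of all genes called), at a median of -0.11, or 0.08 with centred arrays. Limma called none with ethanol against poly IC, beside 10.6% of all genes (median -0.20, with 0 at an unadjusted p under 0.05). Without ethanol replicate 1 or 2 that median was -0.13 or -0.08. Sf3a1, a subunit of SF3A, went from 3065 on the naive array to 1596 and 1806 with poly IC (-0.77, SE 0.24, adjusted p = 0.0335) and read 1430 and 1229 with ethanol, which was a fall against naive as well (-1.07, SE 0.24, adjusted p = 0.0132). All 4 treated arrays were below the naive one. The poly IC call was lost without poly IC replicate 1 (-0.69) or 2 (-0.84), with centred arrays (-0.57) and with quantile normalization (-0.56).

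Sf3b1, the branch site protein that is often mutated in myelodysplasia, was not called and read 15629 on the naive array, 13585 and 13814 after poly IC, and 15215 and 14797 with ethanol (-0.19, SE 0.15, and 0.13, SE 0.12). Its dimmer probe set read 6377, then 4999 and 3865, then 5780 and 5207, differences of -0.51 and 0.30, and there too the poly IC arrays were lowest. U2af2, the large U2AF subunit, read 21444, then 21368 and 22843, then 17826 and 20745 (0.04, SE 0.15, and -0.20, SE 0.13). U2af1, the small subunit, read 6904 on the naive array, 9819 and 11215 after poly IC, and 10128 and 6912 with ethanol; it differed by 0.59 (SE 0.23, adjusted p = 0.079) with poly IC and was not called, and its ethanol pools were far apart, 1 of them at the naive level.

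The snRNP proteins are the Sm ring and the particle-specific proteins around the U1 and U2 RNAs. Of 8 tested genes, 1 rose and 1 fell with poly IC (median 0.16), and limma called none with ethanol against poly IC (median -0.02, or 0.03 with quantile normalization, with 1 at an unadjusted p under 0.05). Called shares were 25% and 0%, beside 31.8% and 10.6% of all genes. Snrpb, which encodes the Sm proteins B and B', rose from 27852 on the naive array to 42961 and 40288 with poly IC (0.57, SE 0.13, adjusted p = 0.00649) and stayed at 41000 and 38964 with ethanol (0.52 against naive, SE 0.13, adjusted p = 0.0201). With quantile normalization these were 0.15 and 0.31 and not called. Snrpe, Snrpg and Snrpd3, further Sm ring members, differed by -0.20, -0.29 and 0.11 with poly IC. The gene that fell was the pseudogene Snrp1c-ps2, at 1752 on the naive array, 784 and 844 after poly IC, and 1577 and 1291 with ethanol, a fall with poly IC of 0.91 on the log2 scale (SE 0.28, adjusted p = 0.0302). Its probe set belongs to the family type that can bind related transcripts, while the functional gene Snrpc differed by 0.22. The call was lost without poly IC replicate 1 (-0.87) or 2 (-0.95), with centred arrays (-0.72) and with quantile normalization (-0.73).

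PRPF genes encode proteins of the tri-snRNP and of the activated spliceosome. Of 7 tested genes, 1 rose and 1 fell with poly IC (median -0.04, or 0.16 with centred arrays or quantile normalization) and 2 fell with ethanol against poly IC (median -0.31, or -0.07 without ethanol replicate 2). The called share was 28.6% in both, beside 31.8% and 10.6% of all genes. Prpf38a, which joins the spliceosome as it is activated, rose from 1616 on the naive array to 3296 and 4679 with poly IC (1.16, SE 0.24, adjusted p = 0.00536), a call kept in all 12 alternatives. It fell with ethanol to 2248 and 2347 (-0.71, SE 0.20, adjusted p = 0.0499), both still above the naive signal. This fall was close to the threshold and was lost without poly IC replicate 1 (-0.95), poly IC replicate 2 (-0.48) or the naive array (-0.71). Its relative Prpf38b read 7262 on the naive array, 8614 and 8247 after poly IC, and 5507 and 4333 in the ethanol pools, a fall of 0.76 on the log2 scale (SE 0.16, adjusted p = 0.0184); without poly IC replicate 1 or 2 it was -0.73 or -0.79 and not called.

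Prpf8, the large scaffold at the catalytic centre, fell with poly IC from 9572 to 6900 and 6160 (-0.54, SE 0.18, adjusted p = 0.0441) and read 6713 and 6714 with ethanol. The treated arrays were alike and all below the naive one. The call was lost without poly IC replicate 1 (-0.62) or 2 (-0.46), with centred arrays (-0.34) and with quantile normalization (-0.48). Prpf6 read 5361 on the naive array, 3352 and 4238 after poly IC, and 5377 and 6178 with ethanol (0.58 against poly IC, SE 0.17, adjusted p = 0.0636), and the kinase Prpf4b differed by -0.42 with ethanol (adjusted p = 0.238).

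**Figure D3:**
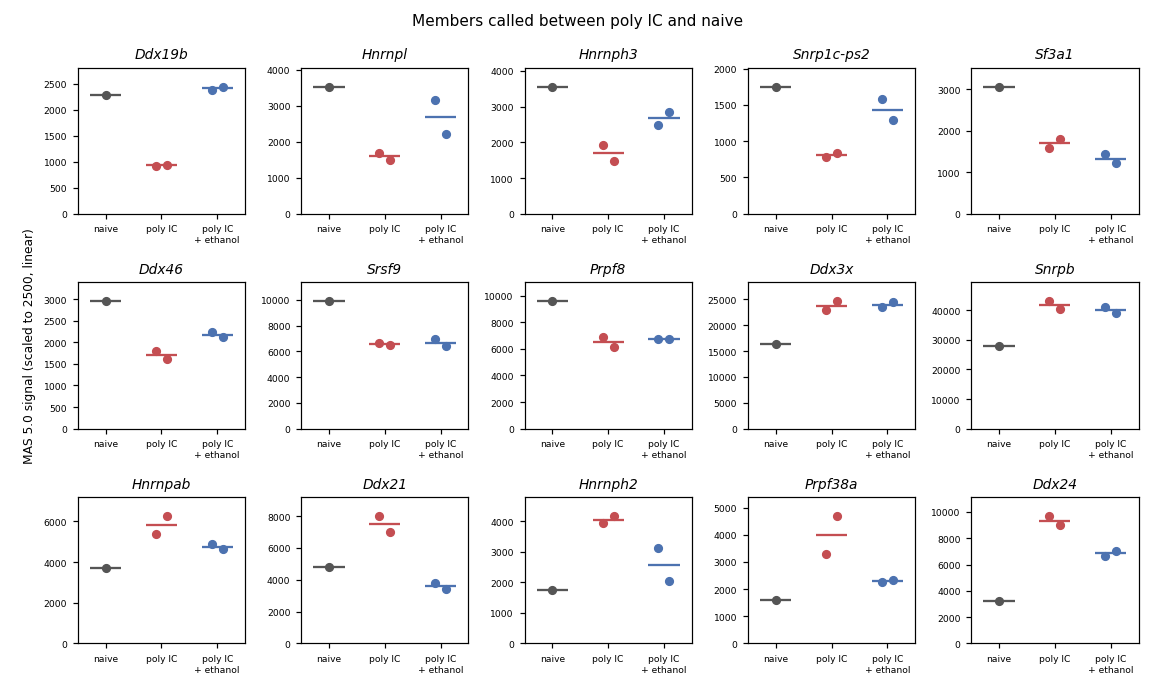
Signals (linear scale from 0, scaled by the submitters to 2500) of the 15 genes called between poly IC and naive, ordered from the largest fall to the largest rise. Points are arrays and bars group means; Ddx24 goes from 3198 on the naive array to 9665 and 9003 after poly IC.

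DDX helicases carry the DEAD box motif and unwind short duplexes. Of 21 tested genes, 3 rose and 2 fell with poly IC (median 0.10, or 0.01 with probe sets averaged and 0.30 with centred arrays), and 1 rose and 2 fell with ethanol against poly IC (median -0.23, or -0.13 with probe sets averaged). Called shares were 23.8% and 14.3%, beside 31.8% and 10.6% of all genes. Both ethanol arrays lay below both poly IC arrays in 12 of the 21 (57.1%, beside 21.7% of all genes). The list of helicases tied to antiviral sensing held 10 names, of which 5 were measured and tested (Ddx1, Ddx3x, Ddx41, Dhx9, Dhx36). Ddx58 (RIG-I), Dhx58 and Ddx60 were not among the measured genes, so their response to poly IC is not known here. Ddx3x alone was called, with poly IC and with both agents against naive (20% in each, beside 31.8% and 16.6% of all genes).

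Ddx24, a nucleolar helicase that has been linked to restraint of RNA sensing, had the highest rise of the members. It went from 3198 on the naive array to 9665 and 9003 with poly IC (1.47, SE 0.18, adjusted p = 0.000208, limma) and read 6648 and 7058 with ethanol, still above naive (1.04, SE 0.18, adjusted p = 0.00322). The 3 groups did not overlap, and both calls were kept in all 12 alternatives. The difference of ethanol from poly IC was -0.43 (adjusted p = 0.0941), not called. A dimmer probe set differed by 0.52 with poly IC and 0.20 with ethanol against poly IC.

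Ddx3x, which acts in translation and in the signalling that leads to interferon, rose from 16414 on the naive array to 23012 and 24570 with poly IC (0.53, SE 0.14, adjusted p = 0.0168) and stood at 23491 and 24447 with ethanol, 0.01 above poly IC (SE 0.11) and a rise of 0.54 over naive (SE 0.14, adjusted p = 0.0271). Ethanol and poly IC arrays overlapped, and all 4 were above naive. A second probe set read 3235 on the naive array and 6649 to 6996 on the treated ones. Without poly IC replicate 2 the difference was 0.48, and with quantile normalization 0.34, neither called; the rise over naive with ethanol was 0.54 and not called without poly IC replicate 1 or 2. The brightest probe set is of the family type and can bind related transcripts.

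Ddx24 and Ddx21 are also on the list of helicases of ribosome assembly. Of its 11 tested genes, these 2 rose and none fell with poly IC (median 0.28), and 2 fell and none rose with ethanol against poly IC (median -0.23). The called share was 18.2% in both, beside 31.8% and 10.6% of all genes. Ddx21, a nucleolar helicase of ribosomal RNA processing that also binds foreign RNA, rose from 4806 on the naive array to 7978 and 7022 (0.61, SE 0.19, adjusted p = 0.036) and fell with ethanol to 3769 and 3425 (-1.01, SE 0.16, adjusted p = 0.00501). The ethanol pools were below even the naive sample, and the groups did not overlap. Ddx18 read 3427 on the naive array, 5251 and 4678 after poly IC, and 3459 and 2626 in the ethanol pools. It fell by 0.67 on the log2 scale (SE 0.18, adjusted p = 0.0444); its other probe set differed by -0.49. The Ddx21 rise was lost without poly IC replicate 1 (0.52) or 2 (0.70), and its fall without poly IC replicate 1 (-0.92). The Ddx18 fall was lost without poly IC replicate 1 (-0.59), poly IC replicate 2 (-0.75) or ethanol replicate 2 (-0.49).

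Other helicases of the list were not called with ethanol against poly IC. Ddx56 differed by -0.58 with ethanol (adjusted p = 0.0539), with arrays of 3706 and 3952 after poly IC and 2416 and 2538 with ethanol. Ddx50, a paralogue of Ddx21, read 4280 on the naive array, 3929 and 3098 after poly IC, and 2467 and 1459 with ethanol, a fall against naive (-1.07, SE 0.29, adjusted p = 0.0322). Against poly IC alone it differed by -0.80 (SE 0.24, adjusted p = 0.0628). Its 3 other probe sets differed from naive by -0.03, -0.51 and -0.15, and from poly IC alone by 0.06, -0.02 and 0.24. The call was lost with the probe sets averaged (-0.53), with centred arrays (-0.96) and with quantile normalization (adjusted p = 0.0587). Ddx54 and Ddx47 differed by -0.23 and -0.14 with ethanol against poly IC.

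Ddx19b, which releases mRNA at the cytoplasmic face of the nuclear pore, showed the reverse of Srsf6. It fell with poly IC from 2278 to 919 and 940 (-1.10, SE 0.23, adjusted p = 0.00554) and with ethanol read 2379 and 2441 (1.17 against poly IC, SE 0.19, adjusted p = 0.006). Pools of a group were close to each other, and ethanol against naive differed by 0.07 (SE 0.23). Both calls were kept in every alternative, 12 for poly IC and 14 for ethanol. The B cell sums given above also fell with poly IC and were higher with ethanol, and their part was not tested.

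The list of splicing and export helicases does not hold Ddx19b, which was placed with translation and mRNA turnover. Of its 7 tested genes, 1 fell with poly IC (14.3%, beside 31.8% of all genes called). Limma called none with ethanol against poly IC, beside 10.6% of all genes (2 at an unadjusted p under 0.05). The fall was that of Ddx46, which acts at the U2 branch site, from 2944 to 1797 and 1611 (-0.71, SE 0.22, adjusted p = 0.0334), against 2231 and 2111 with ethanol. It was lost without poly IC replicate 1 (-0.78) or 2 (-0.64), with centred arrays (-0.51) and with quantile normalization (-0.50). Ddx5 and Ddx17, paralogues that act in splicing and transcription, fell in poly IC plus ethanol against naive. Ddx5 read 21878 on the naive array, 19937 and 17821 after poly IC, and 14988 and 14057 in the ethanol pools (-0.58 against naive, SE 0.15, adjusted p = 0.0282). Ddx17 read 16111, then 13470 and 11395, then 10093 and 8162 (-0.81, SE 0.19, adjusted p = 0.0171). In both, ethanol arrays were lowest and naive highest, and the differences from poly IC alone, -0.37 and -0.44, had adjusted p = 0.0928 and 0.108. With centred arrays these differences from naive were -0.47 and -0.70, not called, and Ddx5 was also not called without poly IC replicate 1 or 2 (-0.58 in both). A dimmer probe set of Ddx17 read 5938 on the naive array, 5375 and 5481 after poly IC, and 3738 and 2243 with ethanol. There the difference with poly IC was -0.12, and that of ethanol was -0.85 from poly IC and -0.97 from naive. Ddx39b (UAP56), which loads export factors on mRNA, differed by -0.02 with poly IC and -0.27 with ethanol.

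Among the rest, Ddx6, which drives mRNA decapping and storage, read 7252 on the naive array, 7863 and 7761 after poly IC, and 10674 and 9764 with ethanol (0.38 against poly IC, SE 0.14, adjusted p = 0.122), with ethanol arrays above all others but no call. Its other, dimmer probe sets differed from poly IC by 0.12 and -0.003, and there the ethanol and poly IC arrays overlapped. None of the 6 tested DHX genes was called by limma in any comparison, beside 31.8%, 10.6% and 16.6% of all genes. At an unadjusted p under 0.05 there were 1 for poly IC against naive, 0 for ethanol against poly IC and 2 for both agents against naive. Dhx9 (RNA helicase A) differed by -0.13 with poly IC and -0.13 with ethanol, and Dhx15, which takes spliceosomes apart, by 0.56 (SE 0.32) and 0.20 (SE 0.26). Ddx25 lay below the brightest control on the naive array, at 183.9, and read 453 and 806 after poly IC and 362 and 871 with ethanol. Its group means were at least 2.09-fold and at least 2.04-fold above naive, but neither was called (limma adjusted p = 0.187 and 0.272). The pools of each group were far apart, and these bounds rest on the means, not on each pool. Its mean over all arrays, 535.1, passed the filter of 513 only through the brighter pool of each treatment. A dimmer probe set of Ddx25 stayed below the brightest control on every array. Ddx4, Ddx49, Dhx32 and Prpf39 did not pass the filter, with signals between 64.2 and 603.9.

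**Figure D4:**
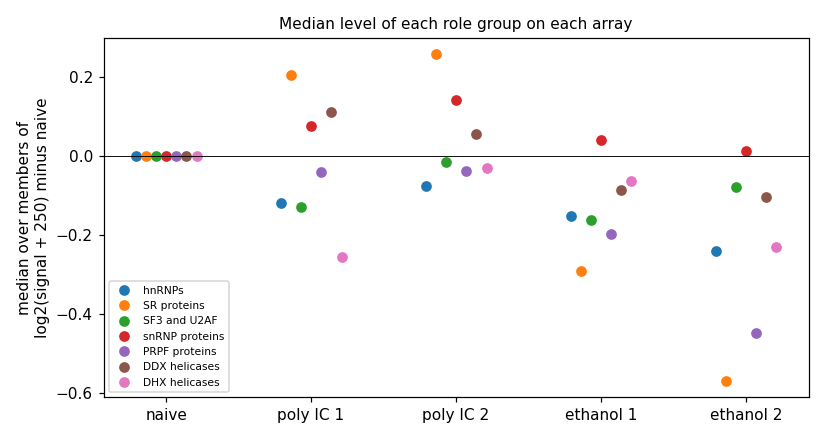
Median over the tested genes of each role of log2(signal + 250) on each array minus the naive array, which is 0 by construction. The 2 points of poly IC stand at 0.21 and 0.26 for SR protein genes, and those of poly IC plus ethanol at -0.29 and -0.57.

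Measured from the single naive array, the medians of SR genes had the same direction in both pools of a treatment. All 4 treated arrays share that naive array, so the directions are not independent. For DDX genes the medians were 0.11 and 0.06, then -0.09 and -0.10, while snRNP genes stayed between 0.01 and 0.14 on all 4. Between the pools of a group, the median absolute difference over the 78 genes was 0.15 for poly IC and 0.15 for ethanol.

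Other RNA processing genes outside these prefixes were taken from a fixed list, of which 63 of 81 were measured and 61 tested. With poly IC 4 rose and 7 fell (median -0.20), and with ethanol against poly IC 1 rose and 4 fell (median -0.12), shares of 18% and 8.2% beside 31.8% and 10.6% of all genes. Tra2b, an SR-like activator of exon inclusion, rose from 11801 on the naive array to 24275 and 21917 (0.95, SE 0.15) and fell with ethanol to 13143 and 12275 (-0.85, SE 0.13, adjusted p = 0.00395). Fubp1 rose from 2288 to 5017 and 5157 and fell with ethanol to 2950 and 3149 (-0.69, SE 0.16). Syncrip, an hnRNP by structure, fell with ethanol (-0.65, SE 0.16), as did the helicase Aqr (-0.67, SE 0.18). Cirbp, a cold-inducible RNA-binding protein, was the rise with ethanol, from 2577 and 1774 to 4734 and 5449 (1.16, SE 0.20), with 3238 on the naive array.

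Of 6 tested kinases that phosphorylate SR proteins, Clk1, Clk2 and Clk4 fell with poly IC, and Clk3, Srpk1 and Srpk2 were not called (-0.35, -0.29 and -0.95). Among all tested genes, 20.1% were called lower in this comparison. The 6 kinases are a part of the other RNA processing list, in which 7 of 61 tested genes fell. Clk1 went from 24298 on the naive array to 7674 and 6691 (-1.73, SE 0.20), Clk4 from 4992 to 1805 and 1854 (-1.33, SE 0.26) and Clk2 from 5777 to 3686 and 3528 (-0.64, SE 0.19). With ethanol Clk1 read 9410 and 12145 and Clk4 read 2259 and 1478, and both were still below naive (-1.17, SE 0.20, and -1.33, SE 0.26).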

How the data were processed

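The files hold deposited intensities: each array has a linear signal for every probe set. The authors scanned and summarised the arrays with Microarray Suite 5.0 and scaled each one globally to a target of 2500, per the labels, which hides any change shared by most transcripts. Data Mining Tool 3.0 is also named in the labels. Detection calls were not analysed here.

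Gene names came from the platform's annotation (10833 of 12488 probe sets had 1 symbol, 396 several, 1193 none), brought up to date for 10817 of them by Entrez ID with RefSeq's GRCm38.p6 gene table. Probe sets with a mean signal under the 40th percentile (513) were left out, and each gene kept its brightest probe set. Signals were analysed as log2(signal + 250) with limma 3.58.1 in R 4.3.3 (3 group means, eBayes with an intensity trend), two-sided, with Benjamini-Hochberg adjustment over 5581 genes. Residual degrees of freedom were 2, and prior ones 7.63. The script was tested on simulated data. Where the mean of the lower group lay below the brightest unspiked control set, a fold is a lower bound over that set. Promoters came from RefSeq (GRCm38.p6). Figures used matplotlib 3.10.9 in Python 3.11.15.

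The genes, lists and tests were chosen with earlier results of these data known. Named genes were the 10 largest called rises and falls per comparison and a fixed set; other members, the genes of the other RNA processing list and the 4 printed promoters were picked after their values were seen. Alternatives changed the offset, filter, scaling, variance trend and probe set rule, left out each treated array and, for ethanol against poly IC, the naive array, and added a replicate block. The number of arrays limits the precision.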

Additional observations from a re-analysis of the deposited data

How the results depend on the processing

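No called gene changed direction in any alternative that could be fitted. Of 1157 values of named genes in alternatives, 100 lost a call, 23 gained one, and 32 changed sign without a call on either side. Calls kept in every alternative numbered 4 of 15 for poly IC against naive (Ddx19b, Hnrnph2, Prpf38a, Ddx24), 1 of 9 for ethanol against poly IC (Ddx19b) and 1 of 9 for poly IC plus ethanol against naive (Ddx24). For poly IC against naive, the 7 rises became 3 with eBayes without the trend and 13 with median-centred arrays, and ranged from 4 to 13 when single arrays were left out. The 8 falls became 3 with centring, 5 without the filter and 5 with quantile normalization, and ranged from 1 to 11 over left-out arrays. For ethanol against poly IC, the 1 rise became 3 with a filter at the 60th percentile and 2 with probe sets averaged, and ranged from 1 to 3 over left-out arrays. The 8 falls became 0 by limma without the trend (18 members with an unadjusted p under 0.05, either way) and 4 without the filter, and ranged from 2 to 17 over left-out arrays. Against naive, the 3 rises with poly IC plus ethanol became 1 without the trend (2 to 6 over left-out arrays). The 6 falls became 1 without the trend, 1 with centring and 2 without the filter (3 to 12 over left-out arrays). Leaving out a treated array leaves 1 array in its group. Members and all tested genes alike then had fewer calls without a poly IC array and more without an ethanol array, in each comparison. For ethanol against poly IC, the members' median was -0.16 or -0.15 without poly IC replicate 1 or 2, beside 0.08 or 0.06 of all genes. Without ethanol replicate 1 or 2 it was -0.16 or -0.10, beside 0.11 or 0.04. The prior degrees of freedom were 47.8 and 44.3 without ethanol replicate 1 and 2, against 7.63. The cause was not tested. With the pool number of the titles as a replicate block, on the 4 treated arrays, ethanol against poly IC gave 3 rises and 11 falls. The deviations of equally numbered pools correlated at 0.05 across genes, so a pairing of the pools was not shown. Signals near the brightest control (299.6 to 443.8) limit what can be read of dim genes.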
